A study of Mus musculus with 6 samples.

Results

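Loricrin, involucrin and 6 further genes of the epidermal differentiation complex were followed in embryonic mouse epidermis that lacked Sox4, Sox11 or both. The 8 genes are those listed for the complex outside its Lce, Sprr, filaggrin-type and S100a families: Lor, Ivl, Kprp, 2310050C09Rik, Crct1, Lelp1, Prr9 and Smcp. They were found through the gene symbol of each probe's RefSeq accession and had 10 probes among the 55681 on the array, where 21370 genes had a symbol. Ivl and Lelp1 had a second probe, and the probe with the highest mean signal stood for the gene. Each of the 6 arrays carried knockout RNA in one dye and RNA of a wild-type littermate in the other, and the labels describe the arrays of a genotype as biological replicates. In Sox4 cKO and Sox11 cKO the named gene was floxed (fl/fl) and removed by Krt14-Cre, a recombinase driven by the keratin 14 promoter, which is active in basal keratinocytes. In dcKO both genes were removed in this way. There were 2 arrays for each genotype, and the dyes were swapped on replicate 2. Samples were epidermis peeled after dispase treatment from dorsal skin of embryos labelled E16, of strain 129SvEx:C57BL/6 per the labels, with the Krt14-Cre line kept on FVB/N per the study's methods. The floxed stock was also Sox12-/- in those methods, and the sources used here do not say whether the embryos on the arrays or their littermates kept that allele. The littermate of Sox4 cKO replicate 1 stood apart in its markers of muscle and dermal fibroblasts. Neither Sox11 probe showed a loss of Sox11 on the arrays labelled Sox11 cKO, where both probes were in or close to background. The study reports RT-qPCR on the RNA before the arrays, to check that each knockout had lost its targeted genes.

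The epidermal differentiation complex is a cluster of genes on mouse chromosome 3 that are switched on as keratinocytes leave the basal layer and build the stratum corneum. Loricrin and involucrin are precursors of the cornified envelope, the shell of cross-linked protein that replaces the plasma membrane of a dying keratinocyte, and transglutaminases join them to each other and to a scaffold of desmosomal proteins. Involucrin is laid down early and loricrin makes up most of the finished envelope. Kprp codes for a proline-rich keratinocyte protein, Crct1 for a small cysteine-rich protein, Lelp1 for a proline-rich protein named for its likeness to the late cornified envelope family, and Prr9 for another proline-rich protein. 2310050C09Rik is known here by its RIKEN clone name. Smcp codes for a cysteine-rich protein of the sperm mitochondrial capsule and lies in the same cluster. Along the chromosome the genes follow one another as Lor, Prr9, Lelp1, Ivl, Smcp, Kprp, 2310050C09Rik and Crct1, with genes of the other families between them.

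The 200 bases before the start site are shown for the 2 genes with a promoter entry that rose in dcKO, for the gene that fell, and for Lor, which did not pass the test. They are RefSeq sequences of assembly GRCm38.p6, 5′ to 3′ on the minus strand of chromosome 3, and capitals mark matches to TATAAA, the TATA box, and to TGANTCA, the core of AP-1 sites. The promoter of 2310050C09Rik lies at chr3:92870206-92870405, that of Lelp1 at chr3:92142755-92142954, that of Prr9 at chr3:92123948-92124147 and that of Lor at chr3:92083143-92083342.
2310050C09Rik: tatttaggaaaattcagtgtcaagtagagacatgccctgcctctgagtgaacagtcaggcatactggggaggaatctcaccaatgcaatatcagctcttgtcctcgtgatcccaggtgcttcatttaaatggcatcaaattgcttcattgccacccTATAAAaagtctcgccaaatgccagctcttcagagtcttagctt
Lelp1: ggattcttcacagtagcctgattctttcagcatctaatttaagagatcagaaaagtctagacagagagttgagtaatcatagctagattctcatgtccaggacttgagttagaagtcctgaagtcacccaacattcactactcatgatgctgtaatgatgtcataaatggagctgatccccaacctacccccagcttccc
Prr9: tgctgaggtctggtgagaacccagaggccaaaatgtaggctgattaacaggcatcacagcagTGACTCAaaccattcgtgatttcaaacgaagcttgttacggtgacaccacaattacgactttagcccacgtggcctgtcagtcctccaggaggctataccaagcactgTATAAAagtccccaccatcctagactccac
Lor: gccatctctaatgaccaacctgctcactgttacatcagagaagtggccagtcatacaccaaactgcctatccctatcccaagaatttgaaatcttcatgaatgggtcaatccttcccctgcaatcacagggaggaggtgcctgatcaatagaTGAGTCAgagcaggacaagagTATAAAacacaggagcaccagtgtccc
Of the 8 genes, 6 had an entry in the promoter table, and Kprp and Crct1 had none. TATAAA, searched on both strands, was in the 200 bases of 4 of these 6 genes (Lor, Ivl, 2310050C09Rik and Prr9), and in 9.96% of all 32851 promoter windows of the same length. TGANTCA was in the windows of Lor, Ivl and Prr9, and in 5.48% of all windows. The forms of the SOX core searched were ACAAAG, which was in the windows of 0 of the 6 genes and in 13.3% of all windows, and ACAAT, which was in those of Ivl, Prr9 and Smcp and in 22.7% of all. CACCC, the core of KLF sites, was in the windows of Ivl, 2310050C09Rik and Lelp1 and in 45.5% of all. In Ivl the ACAAT match overlaps the TATAAA match by 1 base, and none of the searched motifs but CACCC was found in the window of Lelp1. These are matches of letters and not measured binding sites.

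In dcKO, 3 of the 8 genes rose and 1 fell past both thresholds of the study's methods, which ask for an adjusted p below 0.05 and a log2 fold change beyond 1.5 in either direction. 2310050C09Rik rose 19.9-fold, Kprp 9.52-fold and Lelp1 4.55-fold, and Prr9 fell 2.87-fold. Crct1, at 2.60-fold, passed the adjusted p alone. Lor, Ivl on its brighter probe and Smcp did not pass it. Of all probes tested, 0.207% were called in dcKO, 0.172% as higher and 0.0341% as lower, and 0.83% had an adjusted p under 0.05. The median of the 8 genes was a log2 fold change of 1.32 against −0.01 over all genes with a symbol, with a median of 1.22 on replicate 1 and 1.42 on replicate 2. In whole epidermis, more RNA per cell and more cells of the type that makes it cannot be told apart.

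2310050C09Rik had the largest change of the 8. On the dcKO arrays its log2 ratio (knockout divided by wild type) was 4.28 and 4.35, which gave a log2 fold change of 4.31 ± 0.20 (SE, n = 2, adjusted p = 4.39e-05). On the Sox4 cKO arrays the ratio was −1.17 and 0.07, and on the Sox11 cKO arrays, where neither sample was well above background, it was 0.06 and 0.27. The dcKO ratios lay clear of all 4 others. Kprp had log2 ratios of 2.56 and 3.94 in dcKO, for a log2 fold change of 3.25 ± 0.17 (SE, n = 2, adjusted p = 7.69e-05). On the Sox4 cKO arrays it had −0.65 and 0.67, and on the Sox11 cKO arrays −0.21 and 0.32. In each genotype Kprp was higher on replicate 2, a shift that the fit took up as a dye effect common to the arrays. Without that term the adjusted p in dcKO was 0.00314.

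Lelp1 had ratios of 2.05 and 2.32 in dcKO, for a log2 fold change of 2.19 ± 0.13 (SE, n = 2, adjusted p = 0.000151). The other arrays gave ratios between −0.30 and −0.07. A second Lelp1 probe was not well above background in any of the 12 samples, and its log2 fold change of 0.12 in dcKO (adjusted p = 0.846) carries no level. Prr9 had ratios of −1.49 and −1.55 in dcKO, for a log2 fold change of −1.52 ± 0.17 (SE, n = 2, adjusted p = 0.00510). It was the only one of the 8 genes with both dcKO samples well above background and both below their littermates. On the Sox4 cKO arrays it had 0.22 and −0.65, and on the Sox11 cKO arrays 0.27 and 0.14. Prr9 lay close to the threshold on size, and without dcKO replicate 1 its fitted log2 fold change was −1.30. The remaining dcKO array had a ratio of −1.55, and the dye term in that fit came from the single-knockout arrays alone. With the log ratio that the scanner software computed, no probe of the array was called in dcKO (5506 probes had an unadjusted p under 0.05 in the fit used here), and the 4 genes kept log2 fold changes of 4.44, 3.26, 2.80 and −1.69 with adjusted p between 0.230 and 0.305.

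**Figure D1:**
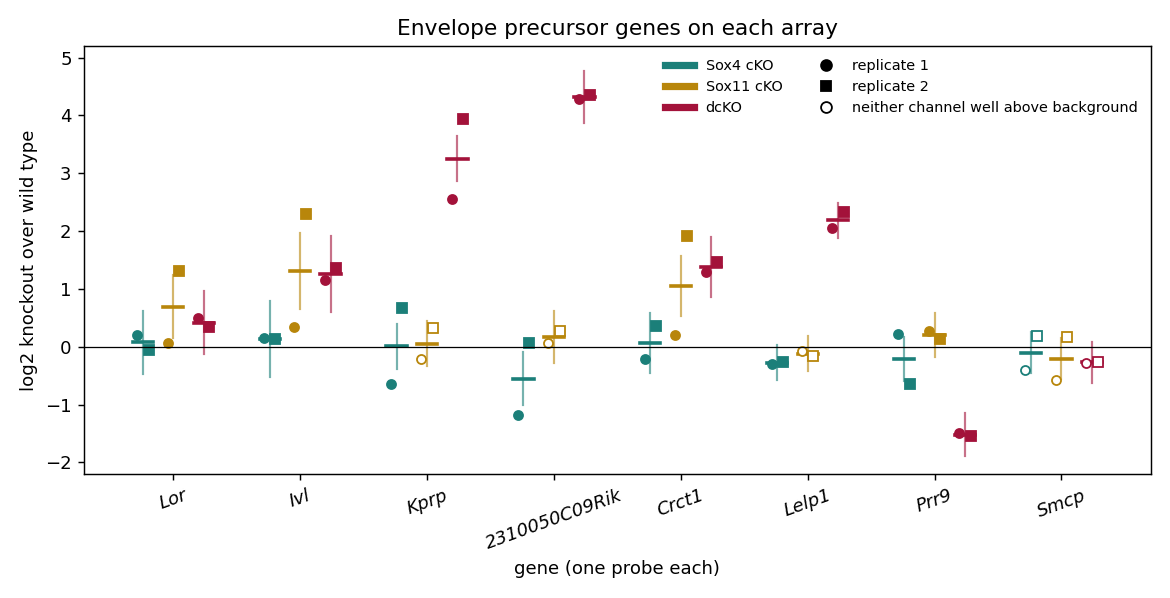
Log2 ratios (knockout divided by wild type) are plotted for each gene (1 probe each) on each array, with circles for replicate 1, squares for replicate 2, a short line at the fitted log2 fold change and a thin line for its 95% interval. Open symbols mark arrays on which neither sample was well above background. The dcKO symbols stand apart from the single knockouts for Kprp, 2310050C09Rik, Lelp1 and, downward, Prr9.

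Lor, the major protein of the envelope, had log2 ratios of 0.50 and 0.34 in dcKO, and its log2 fold change of 0.42 (95% interval −0.12 to 0.96) did not pass the test (adjusted p = 0.624). The fitted value was 0.09 without dcKO replicate 1 and 0.74 without replicate 2. Neither is the ratio of the array that remained, because the dye term then came from the single-knockout arrays alone. Its raw signal in the brighter channel was 8.02% to 14.2% of the scanner's saturation value, and no spot of the 8 genes was saturated. Ivl had ratios of 1.15 and 1.36 in dcKO on its brighter probe, a log2 fold change of 1.25 ± 0.29 (SE, n = 2) with an adjusted p of 0.136. Its other probe gave 1.33 and 1.39, a log2 fold change of 1.36 ± 0.24 with an adjusted p of 0.0444, so the probes were close in size and lay on either side of the threshold. Crct1 had ratios of 1.28 and 1.47 in dcKO, for a log2 fold change of 1.38 ± 0.23 (SE, n = 2, adjusted p = 0.0353). That call on the adjusted p did not hold without the dye term (adjusted p = 0.169). Without dcKO replicate 1 the fitted log2 fold change of Crct1 was 0.90, while the remaining dcKO array had a ratio of 1.47. The gap is the dye term, which then came from the single-knockout arrays alone. Smcp was not well above background in any of the 12 samples, and no level can be given for it.

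No member was called in a single knockout. In Sox4 cKO, 0.00539% of all probes were called by limma (3436 probes had an unadjusted p under 0.05), and of the 8 genes 1 had an unadjusted p under 0.05, which was 2310050C09Rik at a log2 fold change of −0.55 (adjusted p = 0.789). Without Sox4 cKO replicate 1 that value was 0.000895. The median of the 8 genes in Sox4 cKO was −0.05. In Sox11 cKO, 0% of the probes were called (3920 had an unadjusted p under 0.05), and 3 of the genes had an unadjusted p under 0.05, namely Lor, Ivl and Crct1. Their fitted log2 fold changes were 0.69, 1.32 and 1.05, with adjusted p of 0.695, 0.683 and 0.672. These means rested on 1 array. On Sox11 cKO replicate 2 the log2 ratio was 1.32 for Lor, 2.30 for Ivl and 1.91 for Crct1, whereas on replicate 1 it was 0.07, 0.33 and 0.20. Without replicate 1 the log2 fold change of Ivl in Sox11 cKO was 2.25 (adjusted p = 0.0212), and without replicate 2 it was 0.38 (adjusted p = 0.916). A genotype left with 1 array is assumed in such fits to vary like the other genotypes, whose arrays supply the spread and the dye term.

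Signals of the knockout and the littermate, each on a log2 scale after normalization within and between arrays, were then read separately. On Sox11 cKO replicate 2 the Ivl signal was 9.76 in the knockout, close to the 9.99 of the other Sox11 cKO sample, and 7.47 in the littermate, the lowest of the 6 wild-type samples. Crct1 was likewise lowest in that littermate, at 11.11, against 14.50 for the median of the wild-type samples. For Lor that littermate was at 15.22, below the other wild-type samples, which lay between 15.75 and 16.07, and the knockout was at 16.54, above the other knockouts, which lay between 16.02 and 16.24. Kprp, 2310050C09Rik and Lelp1 were in the background in both Sox11 cKO littermates, which therefore have no order. Of the 7 genes with a measured level in any sample, the littermate of Sox4 cKO replicate 1 was highest for 5, all but Prr9 and Lor. That littermate also had the highest summed signals of muscle and dermal fibroblast markers, and their part in its levels was not tested. The wild-type samples spanned 7.97 log2 units for Kprp, 7.18 for 2310050C09Rik, 4.47 for Crct1, 4.34 for Ivl, 2.40 for Lelp1, 1.98 for Prr9 and 0.85 for Lor. For Kprp, 2310050C09Rik and Lelp1 the lowest of these lay in the background, so the span is a lower limit. For each of these 7 genes, wild-type embryos of the same labelled age thus spanned more than the log2 fold change in dcKO in size. A span between extremes and a mean difference within arrays are unlike measures, and some spans rested on 1 sample. Without the littermate of Sox4 cKO replicate 1, Lelp1 ran from 5.34 to 6.26, against a log2 fold change of 2.19 in dcKO. Without that of Sox11 cKO replicate 2, Lor ran from 15.75 to 16.07, against 0.42. The cause of the wild-type spread was not tested.

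**Figure D2:**
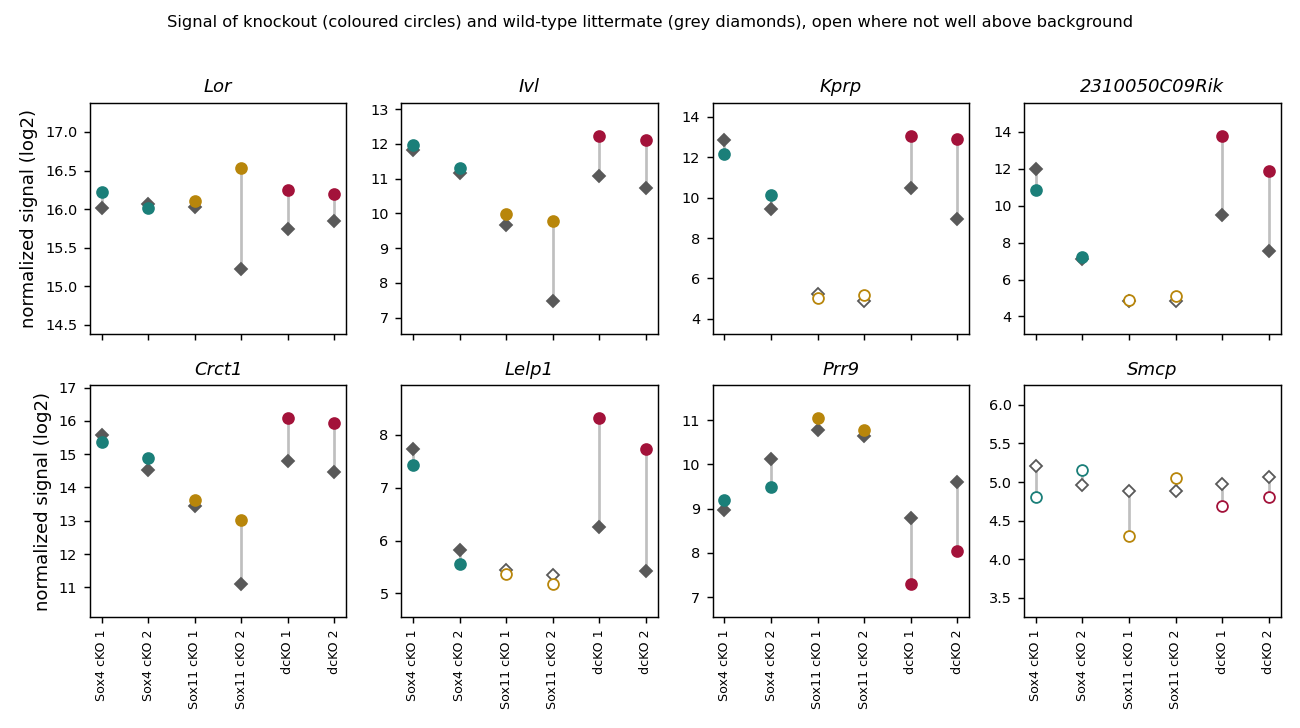
Normalized signal (log2) of each gene in the knockout (coloured circle) and the wild-type littermate (grey diamond) of each array, open where the sample was not well above background, with a grey line between samples of 1 array. Each panel has its own vertical scale. Wild-type signals of Kprp, 2310050C09Rik, Crct1 and Ivl differ widely between arrays. The lowest of Crct1 and Ivl are on Sox11 cKO replicate 2, and those of Kprp and 2310050C09Rik are in the background on both Sox11 cKO arrays.

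Set against every wild-type sample and not only their own littermates, the dcKO samples were still high. Kprp signals were 13.06 and 12.89 in dcKO, and the highest of the 6 wild-type samples, that of Sox4 cKO replicate 1, was at 12.84. Ivl signals were 12.23 and 12.10 in dcKO, above the wild-type maximum of 11.81. Crct1 signals were 16.07 and 15.94 in dcKO, above the wild-type maximum of 15.58. For these genes and for Lor the dcKO samples did not overlap the wild-type samples, by margins that were small against the wild-type spread. For Lor, 2 single-knockout samples also reached the lower dcKO sample, at 16.19, and the highest single knockout was at 16.54. For 2310050C09Rik the lower dcKO sample, at 11.90, lay below 1 wild-type sample, at 12.00, and the higher was at 13.78. For Lelp1 the dcKO samples were at 8.31 and 7.74, and 1 wild-type sample, also at 7.74, reached the lower of them. The highest wild-type sample of these genes other than Lor was the littermate of Sox4 cKO replicate 1, and without it the highest was 10.49 for Kprp, 9.50 for 2310050C09Rik, 6.26 for Lelp1, 11.17 for Ivl and 14.79 for Crct1. Prr9 signals in dcKO, at 7.30 and 8.05, were below all 6 wild-type samples, which ran from 8.79 to 10.77. These comparisons across arrays carry no test, and the wild-type samples lay on different arrays. The share of all probes whose dcKO samples lay outside the wild-type range was not counted. Such a separation therefore cannot be called particular to these genes.

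The double knockout was then compared with each single knockout as a difference of log2 fold changes in the same fit. Against Sox4 cKO, 3 of the 8 genes were called, and 0.131% of all probes were. 2310050C09Rik differed by 4.87 ± 0.28 (SE, adjusted p = 0.000364), Kprp by 3.24 ± 0.24 (adjusted p = 0.00149) and Lelp1 by 2.47 ± 0.19 (adjusted p = 0.00165). Without Sox4 cKO replicate 1, whose littermate stood apart, the differences were 4.31, 3.06 and 2.49 and were still called (adjusted p = 0.00382, 0.0254 and 0.0260). Against Sox11 cKO the same 3 genes and Prr9 were called, with 0.136% of all probes. The difference was 4.15 for 2310050C09Rik (adjusted p = 0.000626), 3.20 for Kprp (adjusted p = 0.00126), 2.30 for Lelp1 (adjusted p = 0.00186) and −1.72 for Prr9 (adjusted p = 0.0379). For the first 3 genes neither sample of a Sox11 cKO array was well above background, so the fold change in Sox11 cKO that enters these differences is a ratio of background signals. In Sox4 cKO all samples were well above background for the 3 genes. The Prr9 difference did not pass without Sox11 cKO replicate 1 (adjusted p = 0.153), Sox11 cKO replicate 2 (0.354) or dcKO replicate 1 (0.117). Lor, Ivl, Crct1 and Smcp did not pass either comparison.

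**Figure D3:**
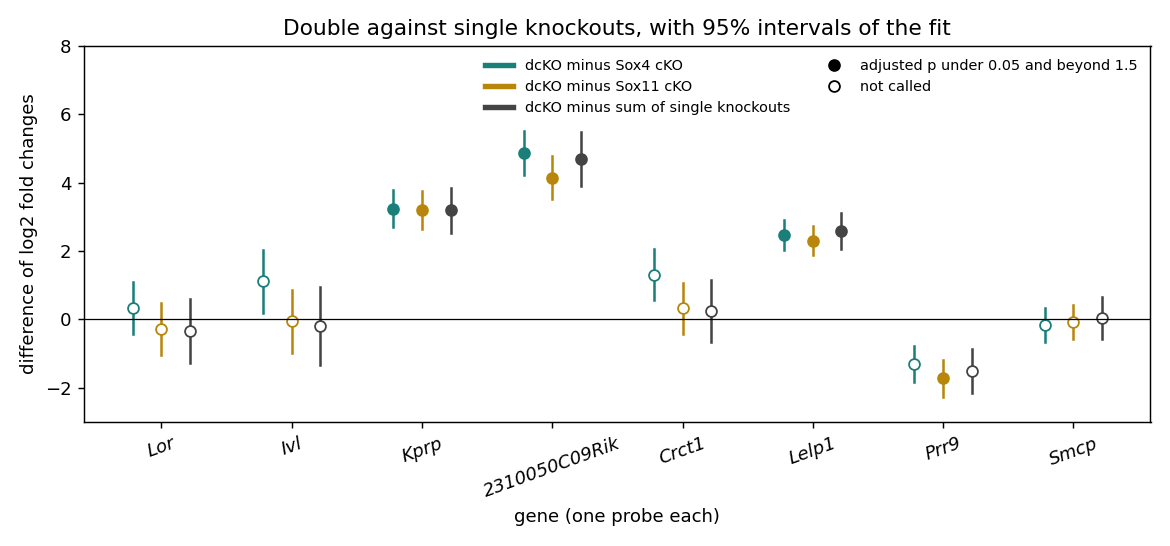
The log2 fold change in dcKO minus that in Sox4 cKO, in Sox11 cKO, or in both added together, for each gene, with the 95% interval of the fit. Filled symbols were called. Filled symbols above 0 are those of Kprp, 2310050C09Rik and Lelp1, and the filled symbol below 0 is Prr9 against Sox11 cKO.

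A further contrast subtracted the log2 fold changes of the 2 single knockouts, added together, from that of dcKO, and asks whether losing both genes goes beyond what the single losses add up to. It was called for 3 of the 8 genes and for 0.0862% of all probes. It was 4.70 for 2310050C09Rik (adjusted p = 0.00215), 3.19 for Kprp (adjusted p = 0.00653) and 2.58 for Lelp1 (adjusted p = 0.00561), with the same limit on the Sox11 cKO term. Kprp did not pass without Sox4 cKO replicate 1 (adjusted p = 0.0558), nor Lelp1 without Sox11 cKO replicate 2 (adjusted p = 0.0574). Without the dye term Kprp was no longer called in any of the 3 comparisons (adjusted p = 0.0664 against Sox4 cKO, 0.0648 against Sox11 cKO and 0.319 for the sum), nor was Prr9 against Sox11 cKO (adjusted p = 0.102). Between the single knockouts the fold change differed for 0 of the 8 genes by limma, where 0.0018% of all probes were called and 3 of the genes had an unadjusted p under 0.05.

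The other protein families of the complex and the genes that the precursors work with were counted in dcKO from lists of genes. Of 21 Lce genes, which code for late cornified envelope proteins, 14 rose past both thresholds and 15 passed the adjusted p, with a median log2 fold change of 2.74. The largest were Lce1b at 4.63, Lce1m at 4.18, Lce1k at 4.13 and Lce1h at 3.80. All the called genes were Lce1 genes. No Lce3 gene was called, with log2 fold changes from −0.79 for Lce3f to 0.95 for Lce3d. Lce6a, at 1.32, passed the adjusted p alone. Of 14 Sprr genes, which code for small proline-rich envelope proteins, 1 was called, Sprr2d at 1.66 (adjusted p = 0.00102), and the median was 0.41, or 0.54 over the 11 well above background in any dcKO or littermate sample. Of 6 genes of the fused S100 family, Flg2 was called at 2.90 (adjusted p = 0.0101), and the median was 0.32, or 0.68 over the 5 other than Tchhl1, which was not above background. The probes of Lor and Ivl thus lay nearer to the medians of the Sprr and fused S100 genes than to that of the Lce genes. Those of Kprp and 2310050C09Rik lay nearer to that of the Lce genes, which reflects the Lce1 genes and not the Lce3 genes.

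The partners outside the complex were read beside the whole array, where 0.207% of all probes were called in dcKO. An adjusted p under 0.05 was reached by 0.83% of all probes. None of the 3 transglutaminases listed, Tgm1, Tgm3 and Tgm5, passed in dcKO, with log2 fold changes of 0.20, 0.62 and 0.23. None of 7 scaffold genes passed. The highest of them was Cdsn, the gene of corneodesmosin, at 1.77 (adjusted p = 0.169), with arrays at 1.43 and 2.12. None of 8 genes for other envelope and late differentiation proteins passed, where Asprv1, a protease that processes filaggrin, was highest at 0.88 (adjusted p = 0.150) and the early differentiation keratins Krt1 and Krt10 were at 0.64 and 0.63. Of 18 transcription factors linked to terminal differentiation, Maf rose by a log2 fold change of 1.68 (adjusted p = 0.00145), and Prdm1, at 0.96 (adjusted p = 0.0426), passed the adjusted p alone. No gene of these lists was called in Sox4 cKO or Sox11 cKO.

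**Figure D4:**
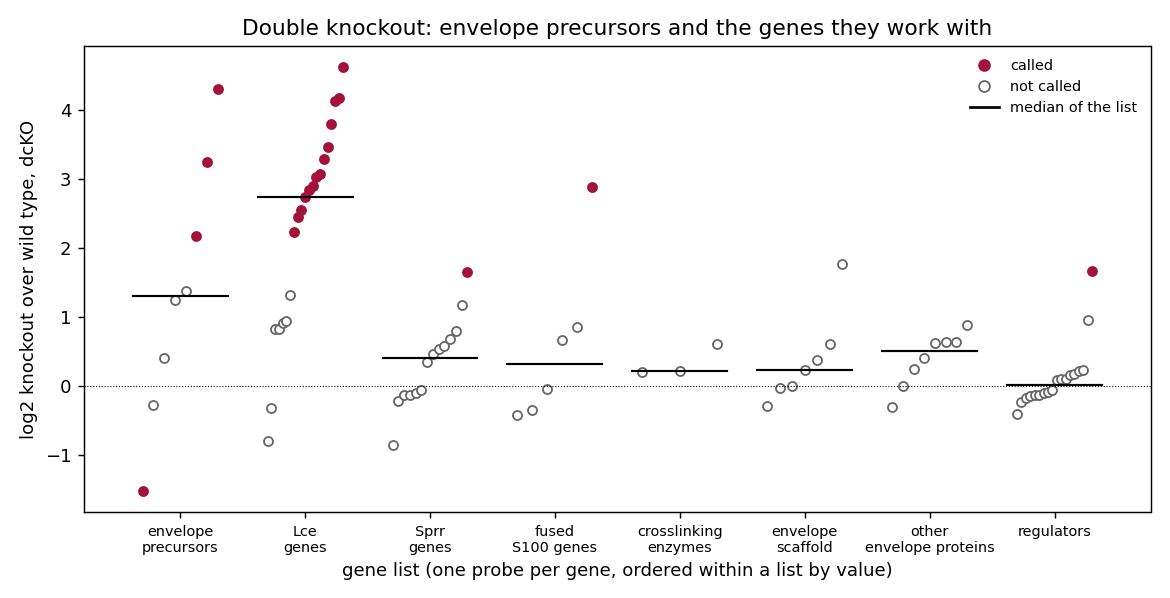
Log2 fold change in dcKO of every gene of each list (1 probe per gene, ordered by value within a list), filled where called, with a black line at the median of the list. The 8 envelope precursors spread from −1.52 to 4.31 around a median of 1.32, between the Lce genes at 2.74 and the lists with medians from 0.02 to 0.52.

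Among genes that were not members, those whose log2 ratios followed a member most closely over the 6 arrays were found by the root mean square difference, over 11153 genes measured on every array. For Ivl they were Kcnj12, a potassium channel gene (0.13 log2 units), and Klk5, a kallikrein protease of the stratum corneum (0.18). The member closest to Ivl was Crct1, at 0.25. Klk5 had a ratio of 1.98 on Sox11 cKO replicate 2 and 0.46 on replicate 1, as Ivl had 2.30 and 0.33. For Lor they were Thy1 (0.11), Rnf39 (0.14) and Tent5a (0.14), which also stood high on Sox11 cKO replicate 2, at 1.37, 1.22 and 1.54. For Kprp they were Lce1c (0.36), Lnx1 (0.43) and Lce1j (0.46), and for 2310050C09Rik they were Sdcbp2 (0.45), Tmem229b (0.71) and Lce1c (0.75). The latter pair of members was not above background on the Sox11 cKO arrays, so likeness there compares ratios of background signals for Kprp and 2310050C09Rik. All of these genes share the 6 arrays and their littermates, so the likeness is a description.

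The targeted genes and markers of cell types were read on the same arrays. Of the Sox4 probes, A_55_P2131899 was called in Sox4 cKO (log2 fold change −1.96, adjusted p = 0.0289) and in dcKO (−1.58, adjusted p = 0.00227), with the knockout samples not well above background, and the other, A_55_P2121613, was at −0.42 and −0.82 (adjusted p = 0.803 and 0.0778). Of the Sox11 probes, A_52_P160955 was not well above background in any sample. The other, A_55_P2094721, was well above background in 1 wild-type sample of each genotype, and had log2 ratios of 0.26 and −0.17 in Sox11 cKO (log2 fold change 0.05, adjusted p = 0.979) and of −0.95 and −0.48 in dcKO (log2 fold change −0.72, adjusted p = 0.198). A loss of Sox11 was thus not seen on the arrays labelled Sox11 cKO, on probes this close to background. The sources used here do not place the probes against the deleted part, so these probes cannot decide whether Sox11 was lost. The study's check of the loss was by RT-qPCR. Keratinocyte markers were well above background in every sample, and none of 7 passed in any genotype. Of 6 periderm markers, keratins and a claudin of the outer embryonic layer that is shed as the barrier forms, Krt4 and Krt19 passed the adjusted p in dcKO, at log2 fold changes of −1.497 and −1.40, and Cldn6 was not above background in any genotype. The summed periderm signal (log2) was 10.74 to 11.23 in dcKO against 11.93 to 12.06 in its littermates, 11.85 to 12.89 against 13.37 to 13.47 in Sox11 cKO, and 12.25 to 12.49 against 11.56 to 12.07 in Sox4 cKO. Wild-type Prr9 was highest on the Sox11 cKO arrays, at 10.77 and 10.63. On those arrays the log2 ratios of Prr9 were 0.27 and 0.14, and the medians of the periderm markers were −1.51 and −0.58. On the dcKO arrays they were −1.49 and −1.55 for Prr9, and −1.07 and −0.61 for the periderm markers. Of 7 dermal fibroblast markers 0 passed in any genotype, with medians of −3.42 and 0.98 on the Sox4 cKO arrays, 1.27 and −0.70 on the Sox11 cKO arrays, and −1.79 and −1.70 on the dcKO arrays. Their summed signal was 12.92 to 13.18 in dcKO and 13.07 to 13.62 in its littermates. That sum mixes directions, since 6 of the markers were lower in dcKO, down to −2.12 for Col3a1, and 1, Dcn, was higher, at 0.35. Markers of muscle, blood vessels, immune cells, red blood cells, melanocytes and hair buds held no gene that passed. The littermate of Sox4 cKO replicate 1 nevertheless stood apart. The summed signal of 6 muscle markers was 10.24 there and 7.48 to 8.43 in the other wild-type samples, with a median log2 ratio of −1.88 on that array and Acta1 and Myh3 at −2.99 and −3.26. Its summed fibroblast signal was 14.42, against 12.60 to 13.62 in the others. The part of the periderm, fibroblast and muscle markers in the changes of the 8 genes was not tested.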

How the data were processed

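Knockout RNA and RNA of wild-type littermates were hybridised in 2 colours to 6 arrays, all on 1 slide and read in 1 scan, so slide and scan could not be fitted. Groups, replicate numbers and dyes came from the sample labels. The authors extracted the images with Agilent Feature Extraction 11.0.1.1 (per the submitters' processing notes). The deposited files give the intensity of each spot in Cy3 and Cy5 as median pixel brightness with its local background, not normalized, and a log10 ratio of Cy5 over Cy3 after the software's own background and dye correction. The authors' series table holds log2 ratios of knockout over wild type. The study's methods name limma (normexp with an offset of 16, loess) and then removal of a colour effect with ComBat. Values of the 8 genes in the series table differed by at most 0.0153 from the ratios computed here, which had no colour correction. Kprp in dcKO was at 2.57 and 3.94 there, so the shift between replicates had not been removed from these values.

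Here limma 3.58.1 in R 4.3.3 was used: normexp with an offset of 16 on the median signals, fitted on all spots, loess within arrays, spots of a probe averaged, and a linear model over 55681 probes with 1 coefficient per genotype and a dye term, which is also the replicate block, moderated by empirical Bayes (prior degrees of freedom 6.63, residual 2). Adjusted p are Benjamini-Hochberg over all probes, two-sided, and a call needed an adjusted p below 0.05 and a log2 fold change beyond 1.5 in either direction. The script was tested on simulated data. Channel signals were compared after Aquantile normalization. The block is the main design because deviations of arrays with the same replicate number correlated at r = 0.26, 0.31 and 0.33 across probes. Precision was limited by the 2 arrays per genotype, and a channel had 38.9% to 43.6% of its spots well above background. In the scanner software's own log ratios, spike-in controls had slopes of 0.828 to 0.848 (log ratio measured against added), so those ratios are somewhat compressed. No such slope was computed for the fold changes given here.

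The named genes were all 8 members with every probe, at most 4 called genes per other list with the largest change in dcKO, and the 3 genes nearest to Lor, Ivl, Kprp and 2310050C09Rik, of which 1 is not reported here. Genes named beside these that were not called were chosen after their values were seen. Members and lists were chosen with earlier results of these data known. Probes were named through RefSeq (GRCm38.p6), and coordinates other than those of the promoters are not given because the array was annotated on another build. Alternatives were other background corrections and scalings, the series table, a filter on dim probes, fits without the block, with ComBat or on a genotype's own arrays, the mean of a gene's probes, and leaving out each array.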

Additional observations from a re-analysis of the deposited data

Results flagged for a closer look

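Differences between genotypes passed the test for 4 of the 8 genes. The effect in dcKO exceeded that in Sox4 cKO by a log2 difference of 4.87 for 2310050C09Rik (adjusted p = 0.000364), 3.24 for Kprp (adjusted p = 0.00149) and 2.47 for Lelp1 (adjusted p = 0.00165). It exceeded that in Sox11 cKO by 4.15 for 2310050C09Rik (adjusted p = 0.000626), 3.20 for Kprp (adjusted p = 0.00126) and 2.30 for Lelp1 (adjusted p = 0.00186), where the Sox11 cKO arrays had background signals only for these genes. For Prr9 the effect in dcKO was lower than in Sox11 cKO, by −1.72 (adjusted p = 0.0379), and this difference was not called without Sox11 cKO replicate 1, without Sox11 cKO replicate 2 or without dcKO replicate 1.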

How the results depend on the processing

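With 2 arrays per genotype the spread behind each fold change was estimated largely from other probes, and fold changes of dim probes depend on the background. Of 520 recomputed values of single genes, 464 kept their direction and their side of the adjusted p threshold, 33 no longer passed, 7 newly passed and 16 changed sign. They belong to 34 results, most of which had not passed in the main fit. Only results that had passed could be among the 33, so the 464 is no measure of how well passing results held. With the log ratio of the scanner software 0 of the 8 genes were called in dcKO and 0 in each of its 3 differences, as was 0 of all probes, and the cause was not tested. Among probes well above background on every array, 1 gene (Prr9) was called in dcKO and 0 in each difference. Kprp, 2310050C09Rik and Lelp1 are left out there by construction, whereas Prr9 was tested and its difference from Sox11 cKO kept its size (−1.72) with an adjusted p of 0.0795. There the median of the remaining genes was 0.87 in Sox11 cKO and 0.84 in dcKO. Without the replicate block, 2 genes (2310050C09Rik and Lelp1) were called in dcKO minus Sox11 cKO, and the same 4 genes were called in dcKO. Under the other settings the count in dcKO was 3 or 4, where an offset of 50 or no background subtraction left out Prr9 and the mean of a gene's probes left out Lelp1 (log2 fold change 1.15). The adjusted p of Ivl in dcKO ran from 0.00273 to 0.688. The difference from the sum of the single knockouts could not be fitted on a genotype's own arrays.

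Leaving out 1 array at a time, where the genotype left with 1 array is assumed to vary like the others, gave between 3 and 5 genes called in dcKO, 0 to 1 in Sox11 cKO, and a median of the 8 genes in dcKO of 0.89 to 1.74. Kprp was at −0.0051 in Sox4 cKO with an offset of 50, and at −0.0098 in Sox4 cKO and −0.0505 in Sox11 cKO with the scanner software's log ratio. Without 1 array, log2 fold changes in Sox4 cKO ran from −0.32 to 0.48 for Lor, −0.41 to 0.69 for Ivl, −0.18 to 0.20 for Kprp, −1.10 to 0.000895 for 2310050C09Rik, −0.13 to 0.26 for Crct1, −0.60 to 0.18 for Prr9 and −0.21 to 0.00042 for Smcp. In Sox11 cKO they ran from −0.0328 to 1.42 for Lor, −0.36 to 0.47 for Kprp, −0.0613 to 0.39 for 2310050C09Rik, −0.24 to 0.0061 for Lelp1 and −0.43 to 0.0092 for Smcp, and in dcKO from 0.09 to 0.74 for Lor and −0.59 to 0.0480 for Smcp. For a genotype left with 1 array the dye term came from the other genotypes. Such a value is therefore not the ratio of the remaining array.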
